A study of Mus musculus with 6 samples.

Results

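The genes of cell-to-matrix adhesion were examined in MS-5, a mouse bone marrow stromal line, grown by itself or together with SKM-1, a human acute myeloid leukaemia (AML) line. The group was taken by gene symbol from the protein-coding genes of the GENCODE M21 annotation. The rule uses no measured value, but it was set with earlier results of these data known. It holds every integrin chain whose symbol is Itga or Itgb followed by a number (11 alpha and 8 beta chains), every laminin chain named Lama, Lamb or Lamc with a number (11 genes), and 8 glycoproteins of the extracellular matrix, namely Fn1, Nid1, Nid2, Vtn, Thbs1, Thbs2, Tnc and Sparc. These are 38 of the 35968 genes, 21951 of them protein coding, that had a transcript in the deposited files.

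Integrins are receptors made of an alpha and a beta chain that span the plasma membrane, bind proteins of the matrix or of other cells on the outside and join the actin cytoskeleton through talin and kindlin on the inside. Laminins are trimers of an alpha, a beta and a gamma chain and form the sheet of a basement membrane, which nidogen links to the type IV collagen network. Fibronectin is bound by several integrins, thrombospondins and SPARC are secreted proteins that change how cells attach, and in the bone marrow blood cells use integrins to hold on to stromal cells and their matrix.

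RNA-seq was done on 3 libraries of MS-5 cells that grew by themselves (MO1, MO2 and MO3, called MS-5 only) and on 3 of MS-5 cells that had been with SKM-1 cells for 24 hr (MC1, MC2 and MC3, called co-culture). AML cells were placed on confluent MS-5 cells at 4 AML cells for each stromal cell, the medium was the same in both groups, and the stromal layer was washed and lightly trypsinised to remove AML cells before RNA was taken. The comparison asks how the transcriptome of the stromal cells differs when AML cells are present. The labels do not say whether the libraries of a group came from separate cultures, so that p-values measure the spread between these libraries, which may be technical, and each group stands for a single cell line.

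Total estimated counts were 23978881 to 27182453 in MS-5 only and 26258451 to 35694987 in co-culture. Libraries MO2 and MC3 stood apart from the other 4 along the component of the expression data that held 25.6% of its variance. Transcripts annotated with a retained intron took 5.25% and 5.38% of all TPM (transcript counts per length, brought to 1 total for every library) in MO2 and MC3, and 2.47% to 2.74% in the others. Genes encoded in mitochondria took 6.07% and 5.92% of counts in MO2 and MC3, and 10.6% to 13.2% in the others. Of 10 stromal marker genes, 8 were tested and 0 passed the test between groups (edgeR), and their summed level was 6280 to 10130 CPM (counts scaled to library size after edgeR's TMM normalisation, as for every CPM value except where stated) in MS-5 only and 7112 to 11040 CPM in co-culture, although Dcn and Lum had at most 2 counts in any library. Of 14 leukocyte marker genes, 12 were tested and 7 were higher in co-culture, with summed levels of 55.6 to 65.2 CPM in MS-5 only and of 112, 398 and 110 CPM in MC1, MC2 and MC3, and Irf8 had 0 counts in MS-5 only. Whether the leukocyte marker reads came from SKM-1 cells left among the MS-5 cells was not tested. In bulk RNA, the number of cells of a type and the RNA per cell cannot be told apart.

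The adhesion genes of MS-5 cells covered a wide range of levels, and a few chains of each kind carried most of the RNA. In TPM, which is per transcript length and so allows genes to be compared with each other, Thbs2 was the highest of the 38 with 1364 ± 677 in MS-5 only (mean ± SD, n = 3), followed by Sparc with 927 ± 79.5 and Fn1 with 752 ± 525. The spreads of these 3 genes overlap, so that their order is not settled. Of the other glycoproteins, Thbs1 was at 179 ± 154 and Nid1 at 113 ± 22.2. Among receptors the highest were the beta chains Itgb1 (199 ± 53.9 TPM) and Itgb5 (161 ± 57.6 TPM) and the alpha chain Itga5 (69.2 ± 34.4 TPM). Among laminins, Lamb2 (45.7 ± 39.6 TPM), Lamb1 (34.5 ± 17.7 TPM), Lamc1 (32.3 ± 12.6 TPM) and Lama5 (20.1 ± 15.2 TPM) lay within each other's spread. The chains detected above 10 TPM therefore included an alpha, 2 beta and a gamma chain of laminin and the alpha and beta chain of the classical fibronectin receptor, Itga5 with Itgb1.

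Summed over each kind of protein, the 19 integrin chains held 477 ± 141 TPM in MS-5 only and 515 ± 136 TPM in co-culture. The 11 laminin chains held 140 ± 88.5 and 152 ± 81.7 TPM, and the 8 glycoproteins 3335 ± 1426 and 4462 ± 1577 TPM. In each of these sums the difference between groups was smaller than the SD within a group, and MO2 and MC3 were the highest of their groups. For the glycoproteins MO2 and MC3 held 4968 and 6280 TPM. MO1 and MO3 held 2337 and 2701 TPM, and MC1 and MC2 held 3650 and 3457 TPM.

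**Figure D1:**
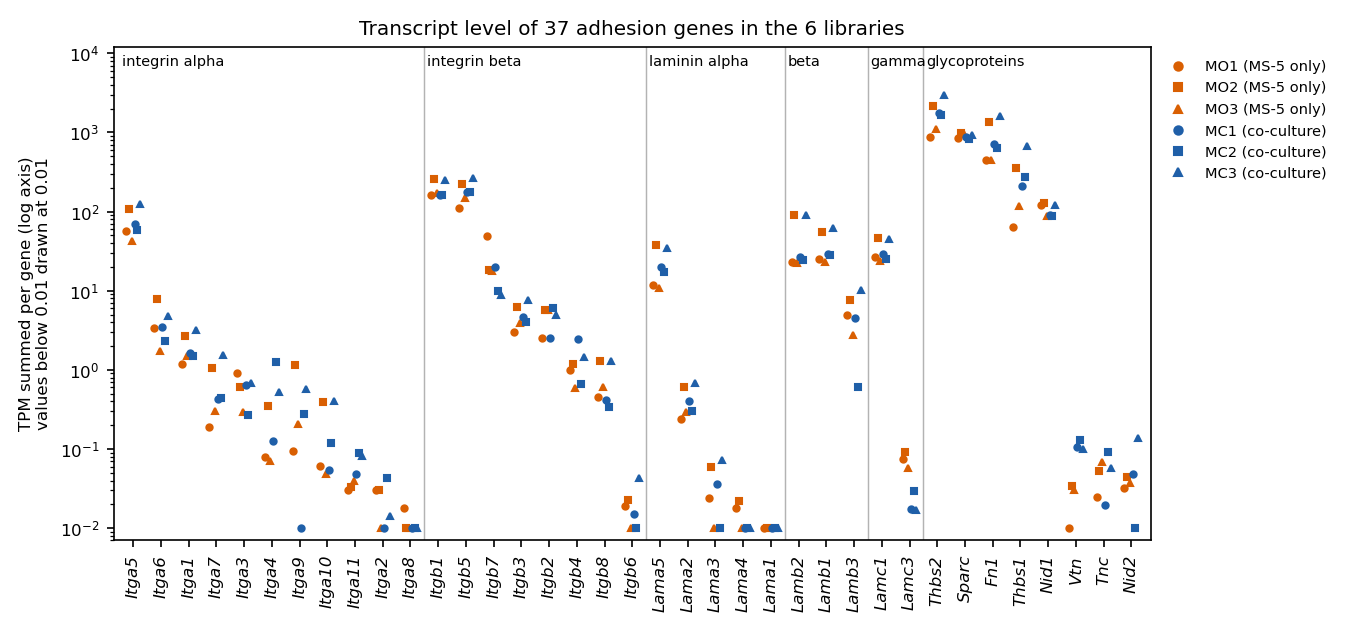
TPM summed per gene (log axis, values below 0.01 drawn at 0.01) for 37 of the 38 adhesion genes in the 3 MS-5 only libraries (orange) and the 3 co-culture libraries (blue), grouped by kind of protein and sorted by mean level. Thbs2, Sparc and Fn1 lie near the top, MO2 (orange squares) and MC3 (blue triangles) are often the highest points of their group, and Itga8, Lama4 and Lama1 lie at or near 0.

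At the other end, 13 of the 38 genes did not pass edgeR's filter on low counts and were not tested, namely Itga2, Itga8, Itga9, Itga10, Itga11, Itgb6, Lama1, Lama3, Lama4, Lamc3, Nid2, Tnc and Vtn. None of them had more than 32 counts in any library. Lama1, the laminin alpha chain of the early embryo, had 0 counts in all 6 libraries, where a count of 0 allows up to 3 counts, or 0.084 to 0.125 CPM of the library's total without TMM. Vitronectin (Vtn), the serum ligand of integrins with an alpha V chain, had counts of 0, 1 and 1 in MS-5 only against 5, 4 and 1 in co-culture. Tenascin-C (Tnc) had 4 to 13 counts per library, and Nid2 had 0 to 6, whereas its relative Nid1 had 10960 to 16953. Exons of Nid2 share 437 bases with Rtraf on the opposite strand, and whether strand was used in counting is not given in the sources used here.

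Between co-culture and MS-5 only, 0 of the 25 tested adhesion genes passed an adjusted p-value of 0.1 in edgeR's quasi-likelihood test, where 4.38% of the 13221 genes tested did. The smallest adjusted p-value among them was 0.355 (Thbs1), and 0 of the 25 had an unadjusted p-value under 0.05 against 14.3% of all genes tested. DESeq2's Wald test called 1 of them higher, Thbs2, and 0 lower, where it called 6.88% of all genes higher and 2.71% lower. Limma on log2(TPM + 0.5) called 0 of them, where it called 2.56% of all genes higher and 0.129% lower. The fitted log2 fold change was positive in 17 of the 25 and negative in 8, with a median of 0.31, a lowest value of -1.06 (Itgb7) and a highest of 1.22 (Itga4). Over all genes tested the median was -0.02, and 47.5% were positive.

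In CPM normalised by TMM, the groups did not overlap in 4 of the 25 genes, each higher in co-culture, where 11.6% of all genes tested were higher without overlap. Among them were Thbs2, Itgb5 and Itgb3. In 0 of the 25 did all co-culture libraries lie below all MS-5 only libraries, where 9.6% of all genes did. This separation depended on the scale, since without TMM the groups overlapped in all 25 genes. In CPM of the library total 0 of the 25 were higher and 0 lower without overlap, where 10.1% and 11.7% of all genes were. In TPM the counts were again 0 and 0, where 7.68% and 7.53% of all genes were. A two-sided exact permutation test for 1 gene has 0.1 as its smallest possible p-value with 3 libraries in each group.

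The number of calls differed with the treatment of libraries MO2 and MC3. In 12 of the 25 genes MO2 was the highest library of MS-5 only and MC3 the highest of co-culture, as in 33.0% of all genes tested, and in TPM in 20 of the 25 and 72.6% of all. When MO2 and MC3 were coded as a covariate in the edgeR fit, 9 of the 25 adhesion genes passed the adjusted threshold of 0.1 as higher in co-culture and 0 as lower, where 13.9% of all genes tested passed as higher and 16.4% as lower. With MO2 and MC3 left out, 4 passed as higher and 0 as lower, where 8.33% of 13047 genes were called higher and 4.71% lower. In 14 of the 25, MC1 and MC2 both lay above MO1 and MO3 in TMM-normalised CPM, and in 0 both lay below, where the shares of all genes were 29.3% and 30.4%. In TPM these counts were 13 and 2, where 26.9% of all genes were higher in this way and the share that was lower was not counted. Among the genes that did not pass with the covariate were Itgb1, Sparc, Nid1, Lamc1, Lamb2 and Itgb7 (adjusted p = 0.600, 0.557, 0.397, 0.774, 0.151 and 0.154, edgeR). The labels name no batch, and MO2 and MC3 were picked by their place in these same expression data. The p-values with the covariate, or with both libraries left out, do not allow for that choice. The part of whatever sets MO2 and MC3 apart in these results was not tested.

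**Figure D2:**
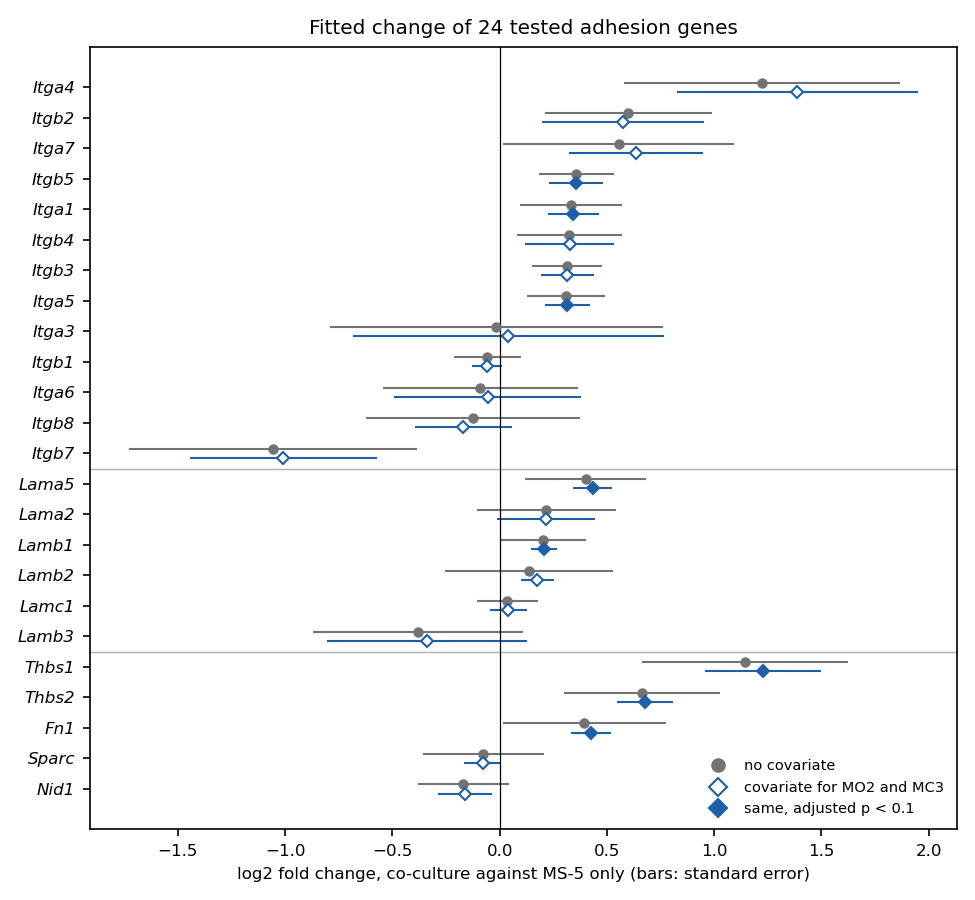
Log2 fold change of 24 of the 25 tested adhesion genes, co-culture against MS-5 only, in edgeR's fit with no covariate (grey circles) and with MO2 and MC3 as a covariate (blue diamonds, filled where the adjusted p-value is under 0.1), with bars of 1 standard error. The values of both fits lie close together for each gene, the bars are shorter with the covariate for most genes, and the 8 filled diamonds, which run from 0.21 (Lamb1) to 1.23 (Thbs1), all lie right of 0.

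Among the alpha chains, Itga5 was the highest in every library and differed little between groups. Itga5 (chromosome 15, 103344286 to 103366763), which with Itgb1 forms the main fibronectin receptor, was measured at 217, 249 and 174 CPM in MS-5 only and at 267, 237 and 289 CPM in co-culture. The groups overlap, since MC2 lies below MO2. EdgeR fitted a log2 fold change of 0.31 (SE 0.18, adjusted p = 0.537, edgeR) and 0.32 (SE 0.11, adjusted p = 0.0870) with the covariate, and the first was 0.18 without MO3.

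Itga1, a receptor for collagens and laminins with Itgb1, was lower by far, at 8.22, 13.6 and 10.2 CPM in MS-5 only and 11.9, 12.3 and 16.1 CPM in co-culture. The highest MS-5 only library was above both MC1 and MC2. Its log2 fold change was 0.33 (SE 0.24, adjusted p = 0.634, edgeR), and 0.34 (SE 0.12, adjusted p = 0.0895) with the covariate. Without a covariate it was 0.18 when MC3 was left out, 0.20 without MO1 and 0.54 without MO2. Its exons share 685 bases with Gm49395, a protein-coding gene of the same strand, and between 21.3% and 47.6% of its TPM lay in transcripts with a retained intron.

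Itga6, an alpha chain of laminin receptors, ranked second by mean TPM among the 11 alpha chains of the symbol rule. Of that TPM, however, 97.7% to 99.8% lay in transcripts annotated as processed transcripts that encode no protein, nearly all in Itga6-205 of 443 bases. The coding transcripts of Itga6 summed to 0.0118 to 0.0543 TPM, and the gene as a whole to counts of 26, 39 and 10 in MS-5 only against 30, 19 and 30 in co-culture. A level of the laminin receptor chain cannot be read from these values.

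Itga4 pairs with Itgb1 or Itgb7 and binds fibronectin and VCAM1, and it is known best from leukocytes. Its counts were 18, 64 and 15 in MS-5 only against 37, 96 and 103 in co-culture, so that MO2 lies above MC1 and the groups overlap. The log2 fold change was 1.22 (SE 0.64, adjusted p = 0.472, edgeR), with 0.83 without MC2, 1.94 without MO2 and 2.18 with an effective length offset. In MC2, 80.3% of its TPM was in a transcript that encodes no protein, which held 0 in the other libraries, and with protein-coding transcripts only the log2 fold change was 0.91 (adjusted p = 0.594, edgeR). Its exons share 1124 bases with Cerkl on the opposite strand. Itga11, a collagen receptor chain, had counts of 3, 3 and 4 in MS-5 only against 7, 10 and 8 in co-culture, groups that do not overlap in a gene too low to be tested. The other tested alpha chains, Itga3 and Itga7, had at most 3.47 CPM in any library, with log2 fold changes of -0.02 (SE 0.78) and 0.55 (SE 0.54). The value for Itga3 was 1.11 without MO1, and that for Itga7 was 0.19 without MC3 and 1.16 without MO2.

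The beta chain shared by most of these receptors varied little between libraries. Itgb1 (chromosome 8, 128685654 to 128733200) was measured at 546, 562 and 590 CPM in MS-5 only and 540, 562 and 530 CPM in co-culture, which are 566 ± 22.4 and 544 ± 16.4 CPM. The log2 fold change was -0.06 (SE 0.16, adjusted p = 0.953, edgeR), and the difference lies within the spread between libraries.

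Itgb5 and Itgb3, which both pair with the alpha V chain in receptors for vitronectin, lay higher in each co-culture library than in each MS-5 only library in CPM normalised by TMM, but not in CPM of the library total or in TPM. Itgb5 (chromosome 16, 33829665 to 33949338) was measured at 282, 360 and 381 CPM in MS-5 only and at 444, 449 and 416 CPM in co-culture. The lowest co-culture library, MC3, is 1 of the pair that stood apart, and the gap between groups is narrow. In TPM, MO2 at 224 lay above MC1 at 179 and MC2 at 175. Its log2 fold change was 0.36 (SE 0.18, adjusted p = 0.436, edgeR), and 0.36 (SE 0.12, adjusted p = 0.0939) with the covariate. Itgb3 was measured at 15.9, 20.9 and 21.2 CPM in MS-5 only and at 24.0, 22.4 and 25.7 CPM in co-culture, with a log2 fold change of 0.31 (SE 0.16, adjusted p = 0.464, edgeR). With the covariate the value for Itgb3 was 0.32 (adjusted p = 0.122). Their common partner Itgav, whose symbol falls outside the rule and which is named after its values were seen, was at 78.2, 94.5 and 72.8 CPM in MS-5 only and 91.1, 80.9 and 103 CPM in co-culture, groups that overlap (log2 fold change 0.17, SE 0.16, adjusted p = 0.762, edgeR).

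The RefSeq promoter of Itgb5 is shown because Itgb5 and Thbs2 are genes without overlap between groups in TMM-normalised CPM that have an entry in the RefSeq table used (GRCm38.p6, from 250 bases before to 50 bases after the start of the gene). It lies at chr16:33829415-33829714 on the plus strand, and the 3 places where the core of a GC box, GGGCGG, occurs on either strand are in capitals:
Itgb5: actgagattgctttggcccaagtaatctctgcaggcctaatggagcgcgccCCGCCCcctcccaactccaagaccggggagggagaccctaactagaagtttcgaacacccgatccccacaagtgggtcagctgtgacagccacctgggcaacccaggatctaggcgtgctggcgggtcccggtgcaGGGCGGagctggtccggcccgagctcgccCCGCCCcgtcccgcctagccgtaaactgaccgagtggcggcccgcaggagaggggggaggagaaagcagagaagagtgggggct

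Itgb7 and Itgb2 are beta chains of leukocyte integrins and varied widely between libraries. Itgb7 (chromosome 15, 102215995 to 102231944), the partner of Itga4 and Itgae in receptors for gut homing, was measured at 102, 22.3 and 34.5 CPM in MS-5 only and 42.6, 21.1 and 12.6 CPM in co-culture. Library MO1 alone is far above the rest, and the others of both groups overlap. The log2 fold change was -1.06 (SE 0.67, adjusted p = 0.575, edgeR), and it lay between -1.67 and -0.14 when each library was left out in turn, with the value nearest 0 when MO1 was left out. Its RNA was a full-length coding form for the most part, since Itgb7-201 held 78.4% to 93.0% of its TPM.

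Itgb2, the beta chain common to the integrins of white blood cells, was measured at 3.59, 5.95 and 6.53 CPM in MS-5 only and at 5.92, 12.5 and 5.97 CPM in co-culture. The high library is MC2, and the other co-culture libraries lie within the range of MS-5 only. The log2 fold change was 0.60 (SE 0.39, adjusted p = 0.586, edgeR), while limma on log2(TPM + 0.5) gave -0.04 (adjusted p = 1.00). Without MC2 edgeR's value was 0.15. A short coding transcript, Itgb2-203 of 364 bases, held 1.21 to 3.39 TPM in MS-5 only and 0.216 to 1.55 TPM in co-culture. The full-length Itgb2-201 held 1.30, 2.88 and 2.04 TPM in MS-5 only and 2.17, 4.45 and 3.47 TPM in co-culture. MC2 is also the library in which the leukocyte markers summed to 398 CPM. Whether reads of SKM-1 cells left among the MS-5 cells were counted for Itgb2 and Itga4 was not tested.

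The other tested beta chains were Itgb4, a laminin receptor chain of epithelia, at 3.09 to 5.04 CPM, and Itgb8, a chain that binds latent TGF-beta with alpha V, at 2.16 to 6.46 CPM. Their log2 fold changes were 0.33 (SE 0.25) and -0.12 (SE 0.50).

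**Figure D3:**
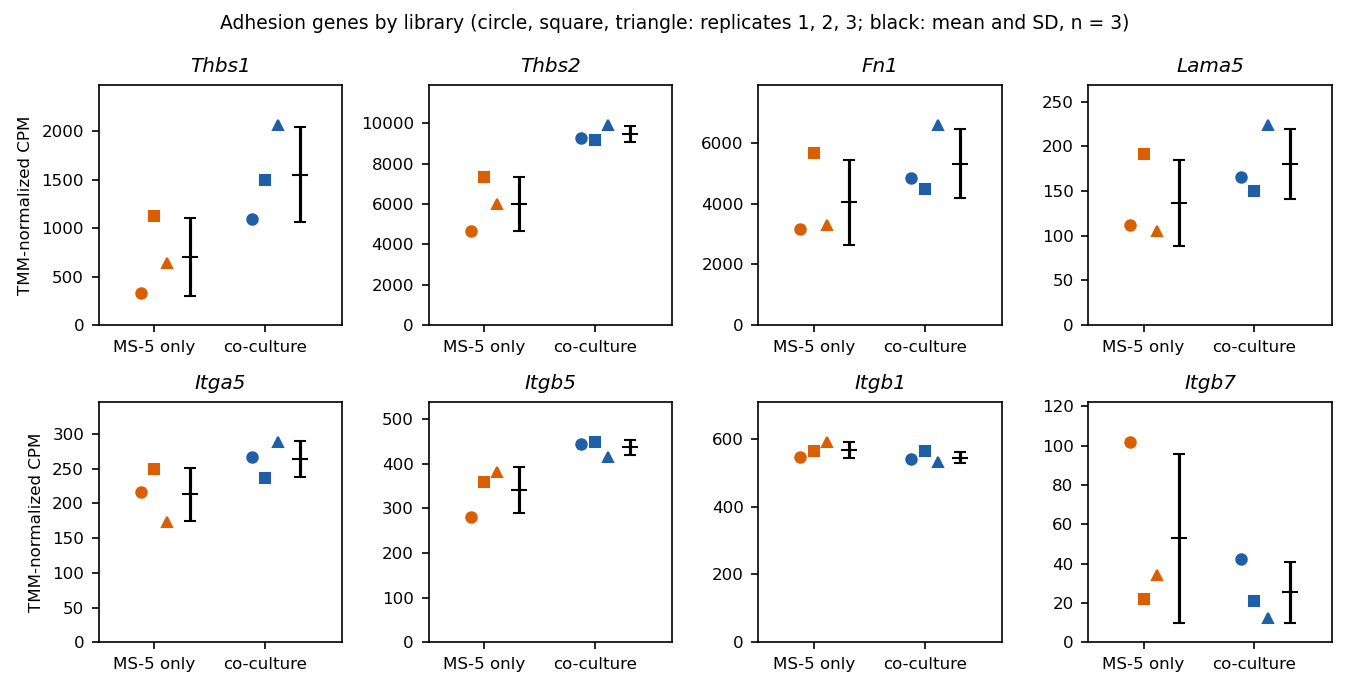
TMM-normalised CPM (linear axes from 0) of 8 adhesion genes in each library, with circles, squares and triangles for replicates 1, 2 and 3 of MS-5 only (orange) and co-culture (blue), and black bars for mean ± SD (n = 3). All co-culture points lie above all MS-5 only points for Thbs2 and Itgb5, Itgb1 lies between 530 and 590 CPM throughout, and the Itgb7 point of MO1 (102 CPM) stands alone.

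Among the laminins, the chains that make up the trimers with alpha 5 lay close together in both groups, and none passed the test without the covariate. Lama5 (chromosome 2, 180176373 to 180225859), the broadly expressed alpha chain, was measured at 112, 192 and 106 CPM in MS-5 only and at 166, 150 and 224 CPM in co-culture. The values of MO2 and MC3 are the highest of their groups, and MO2 lies above MC1 and MC2. Its log2 fold change was 0.40 (SE 0.28, adjusted p = 0.625, edgeR), 0.43 (SE 0.09, adjusted p = 0.0258) with the covariate and 0.56 (adjusted p = 0.0770) with MO2 and MC3 left out. It was 0.21 without MC3 alone, 0.24 without MO3 and 0.72 without MO2. Lama2, the alpha chain of muscle and nerve basement membrane, was at 1.88 to 3.23 CPM, and with Lama5 it was the only laminin alpha chain tested.

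Lamb1, the beta chain of the most widespread laminins, was measured at 132, 178 and 126 CPM in MS-5 only and at 151, 150 and 201 CPM in co-culture. EdgeR's log2 fold change was 0.20 (SE 0.20, adjusted p = 0.774, edgeR), and 0.21 (SE 0.06, adjusted p = 0.0629) with the covariate. Leaving out MC3 alone gave 0.048, MO3 0.10 and MO2 0.37. Lamb2, its counterpart at synapses and in the glomerulus of the kidney, was measured at 88.7, 190 and 86.8 CPM in MS-5 only and at 106, 105 and 191 CPM in co-culture. For Lamb2, MO2 and MC3 lie nearly level with each other and far above the other 4 libraries, and the log2 fold change was 0.14 (SE 0.39, adjusted p = 0.958, edgeR). Lamc1, the gamma chain of most laminins, was measured at 187, 209 and 167 CPM in MS-5 only and at 199, 183 and 196 CPM in co-culture. Its difference lies within the spread between libraries (log2 fold change 0.04, SE 0.14, adjusted p = 0.974, edgeR).

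Lamb3, a beta chain of epithelial basement membranes, was at 2.33 to 8.78 CPM with a log2 fold change of -0.38 (SE 0.49, adjusted p = 0.848, edgeR), and Lama3 had 1 to 11 counts per library. Lamc3 had counts of 10, 10 and 7 in MS-5 only against 3, 4 and 2 in co-culture, groups that do not overlap in a gene too low to be tested.

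Among the adhesion genes with a mean above 100 TPM over the 6 libraries, the largest fitted changes were those of the thrombospondins. Thbs2 (chromosome 17, 14665500 to 14694235), a secreted matricellular protein that binds cell surface receptors, was measured at 4645, 7322 and 6010 CPM in MS-5 only and at 9304, 9190 and 9943 CPM in co-culture. The co-culture libraries lie close together, at 9479 ± 406 CPM, and above all of the MS-5 only libraries, at 5993 ± 1339 CPM. In TPM, Thbs2 was at 2135 in MO2 and at 1749, 1645 and 2932 in MC1, MC2 and MC3, so that the groups overlap and the co-culture libraries are spread, and they overlap too in CPM of the library total. EdgeR fitted a log2 fold change of 0.66 (SE 0.36, adjusted p = 0.499), and of 0.68 (SE 0.13, adjusted p = 0.0212) with the covariate, and the value was 0.67 (adjusted p = 0.0210) in DESeq2's test with no covariate.

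Thbs1 (chromosome 2, 118111876 to 118127133), a relative of Thbs2 that also activates latent TGF-beta, was measured at 335, 1127 and 642 CPM in MS-5 only and at 1095, 1491 and 2067 CPM in co-culture. MC1 lies just below MO2, and the other values are parted by group. A log2 fold change of 1.15 was fitted (SE 0.48, adjusted p = 0.355, edgeR), with 1.23 (SE 0.27, adjusted p = 0.0290) with the covariate and 1.42 (adjusted p = 0.0864) with MO2 and MC3 left out. In the single pair MC3 against MO2 the log2 ratio was 0.88, and in MC1 and MC2 against MO1 and MO3 it was 1.40.

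The RefSeq promoter of Thbs2 is given as that of the gene with the highest mean TPM of the group. It lies at chr17:14694213-14694512 on the minus strand, and its only match to the TATA box letters TATAAA, read on the opposite strand, is in capitals:
Thbs2: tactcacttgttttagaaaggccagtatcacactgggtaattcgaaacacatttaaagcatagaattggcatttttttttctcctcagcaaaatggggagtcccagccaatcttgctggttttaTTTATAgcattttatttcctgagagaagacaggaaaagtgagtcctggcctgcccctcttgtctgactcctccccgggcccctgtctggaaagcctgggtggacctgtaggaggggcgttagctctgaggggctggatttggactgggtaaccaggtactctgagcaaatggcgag
Of the 38 genes, 24 had an entry in the RefSeq table, with 28 promoters in all. Searched on both strands, TATAAA occurred in 4 of these 28 and in 13.6% of the 32851 promoters of the table, and GGGCGG in 13 of the 28 and in 35.7% of all. The core of a hypoxia response element, ACGTG, occurred in 1 of the 28 (Itga9) and in 19.6% of all, and the core of a TEAD site, GGAATG, in 5 of the 28 and in 14.7% of all. Such matches describe these windows of 300 bases.

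Fn1 (chromosome 1, 71585520 to 71653200), which encodes fibronectin, was measured at 3181, 5659 and 3291 CPM in MS-5 only and at 4835, 4496 and 6605 CPM in co-culture. MO2 and MC3 are again the highest of their groups, and MO2 lies above MC1 and MC2. Its log2 fold change was 0.39 (SE 0.38, adjusted p = 0.763, edgeR), 0.43 (SE 0.09, adjusted p = 0.0294) with the covariate and 0.55 (adjusted p = 0.0812) with MO2 and MC3 left out. Without MC3 alone the value for Fn1 was 0.21, and without MO2 alone 0.71. Sparc, a collagen-binding glycoprotein, was measured at 1581, 1218 and 1868 CPM in MS-5 only and at 1666, 1638 and 1124 CPM in co-culture. For Sparc, MO2 and MC3 are the lowest libraries of their groups, and the log2 fold change was -0.08 (SE 0.28, adjusted p = 0.971, edgeR). Nid1, the link between laminin and type IV collagen, was measured at 677, 453 and 497 CPM in MS-5 only and at 505, 507 and 435 CPM in co-culture (log2 fold change -0.17, SE 0.21, adjusted p = 0.843, edgeR).

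Among the exons at which fibronectin RNA is alternatively spliced are EIIIB and EIIIA, which plasma fibronectin from liver lacks and fibroblasts include in part. The sequences of both exons (GENCODE M21, GRCm38, minus strand, in lower case throughout) are shown because the shares given below are of transcripts with each exon. The transcripts differ elsewhere too, since Fn1-211 and Fn1-214, both with EIIIA and without EIIIB, have 7965 and 8043 bases. EIIIB spans 273 bases at chr1:71613763-71614035 and EIIIA 270 bases at chr1:71603660-71603929:
EIIIB: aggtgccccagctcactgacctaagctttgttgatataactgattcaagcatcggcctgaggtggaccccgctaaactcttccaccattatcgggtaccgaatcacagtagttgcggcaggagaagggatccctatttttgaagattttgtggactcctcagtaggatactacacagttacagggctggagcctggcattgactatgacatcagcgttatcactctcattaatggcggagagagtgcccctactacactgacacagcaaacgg
EIIIA: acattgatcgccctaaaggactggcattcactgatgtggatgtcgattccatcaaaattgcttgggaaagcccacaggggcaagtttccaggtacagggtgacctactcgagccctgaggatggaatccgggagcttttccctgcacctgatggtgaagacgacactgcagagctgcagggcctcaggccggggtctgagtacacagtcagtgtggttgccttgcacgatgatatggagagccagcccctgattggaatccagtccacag

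The 7 coding Fn1 transcripts of full length held 84.3% to 96.1% of the gene's TPM. EIIIB was in 26.8%, 29.1% and 28.9% of their TPM in MS-5 only and in 27.2%, 30.9% and 29.7% in co-culture. EIIIA was in 56.4%, 52.4% and 52.9% in MS-5 only and in 55.5%, 56.2% and 54.2% in co-culture. The means, 28.3 ± 1.32% against 29.3 ± 1.84% for EIIIB and 53.9 ± 2.14% against 55.3 ± 1.00% for EIIIA, differed by less than the spread between libraries (exact two-sided permutation p = 0.4 for each, n = 3 per group). In both groups, fibronectin RNA with and without each exon was counted. The shares rest on how Kallisto divided reads among transcripts, and the annotation has EIIIB in 1 of the 7 transcripts, which also has EIIIA.

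**Figure D4:**
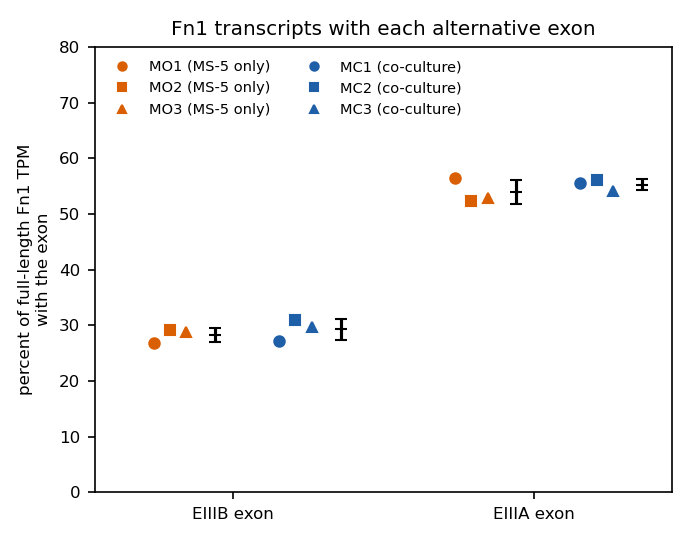
Share of the TPM of full-length Fn1 transcripts (percent, linear axis from 0) that includes the EIIIB or the EIIIA exon in each library, with black bars for mean ± SD (n = 3) in MS-5 only (orange) and co-culture (blue). EIIIB lies between 26.8% and 30.9% and EIIIA between 52.4% and 56.4% in the 6 libraries, and the groups overlap for both.

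The share of the gene held by the transcript with the highest mean TPM was compared for the 13 adhesion genes of at least 5 TPM in every library. Among them the group means lay furthest apart for Itgb7-201, with 81.2 ± 4.84% of Itgb7 TPM in MS-5 only and 90.6 ± 3.65% in co-culture (exact two-sided permutation p = 0.2), where MO1 at 86.8% lies just above MC2 at 86.4%. Taken over counts in place of TPM, the means for Itgb7-201 were 97.7% and 98.9%. The groups did not overlap for Fn1-203, with 31.8 ± 1.68% of Fn1 TPM in MS-5 only and 28.6 ± 0.61% in co-culture, and for Lamc1-201, with 99.4 ± 0.55% and 98.5 ± 0.47%. Over counts, the difference in mean share was -2.33 points for Fn1-203 and -0.07 points for Lamc1-201. In TPM each had an exact two-sided permutation p of 0.1, the smallest that 3 libraries against 3 allow, before any adjustment for 13 genes. In 9 of the 13 the leading transcript held more than 80% of the gene's TPM in MS-5 only, the exceptions being Fn1-203, Itgb5-202 (61.9 ± 5.34%), Lamb2-201 (68.6 ± 7.10%) and Sparc-201 (64.7 ± 2.26%).

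Transcripts with a retained intron separated MO2 and MC3 from the other libraries within the adhesion genes too. Over the 38 genes they took 4.47% of TPM in MO2 and 4.89% in MC3, and 0.662% to 1.02% in the other 4. For Lamb2 the shares were 21.5% and 23.6% against 1.10% to 3.26%. For Fn1 they were 11.2% and 11.1% against 1.75% to 3.39%. With counts of protein-coding transcripts only, an alternative chosen after the values were seen, 0 of the adhesion genes passed, where 0.025% of 11994 genes were called higher and 0.0% lower. The log2 fold changes of Thbs1 (1.16), Thbs2 (0.68), Fn1 (0.40) and Lama5 (0.42) were close to those with all transcripts.

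**Figure D5:**
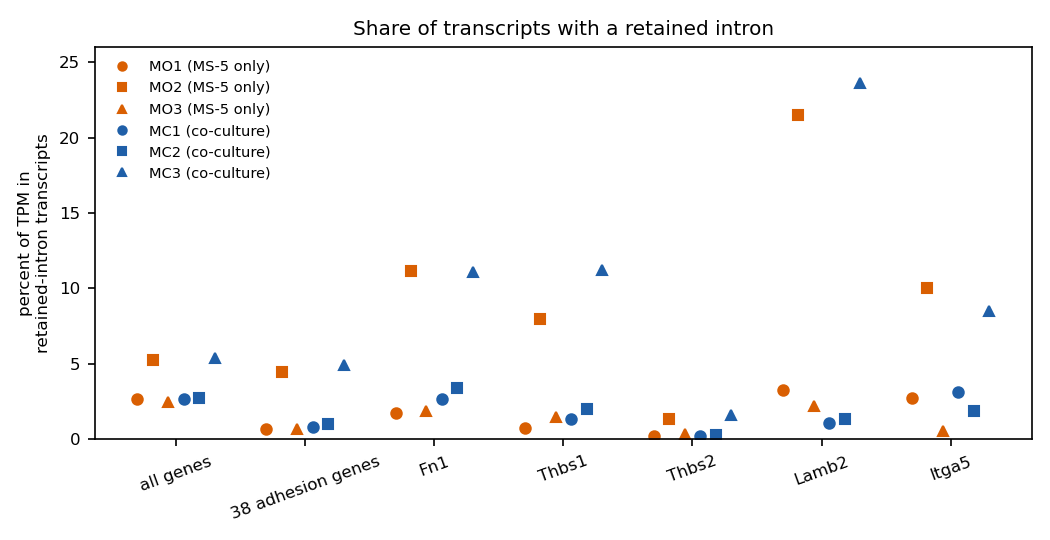
Share of TPM in transcripts annotated with a retained intron (percent, linear axis from 0) in each library, over all genes, over the 38 adhesion genes and in 5 of them. MO2 and MC3 lie above the other 4 libraries in each column, by the most for Lamb2 (21.5% and 23.6%).

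The genes that work beside these receptors and ligands were counted in 5 lists, in the same fit. Of 5 tested integrin chains outside the symbol rule, 1 was called higher and 0 lower. Of 13 partners of the basement membrane, 1 was called higher, and of 20 other matricellular glycoproteins 2 were, with 0 lower in either. Of 32 genes of the integrin adhesion complex inside the cell and of 8 counter-receptors for leukocytes, 0 were called. The medians of the log2 fold change were 0.27, 0.20, 0.12, 0.06 and 0.06 in that order, against -0.02 over all genes tested, of which 3.71% were called higher and 0.666% lower.

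The called genes fall into 2 kinds by their values. Sdc4, a syndecan that binds fibronectin beside integrins, was measured at 97.7, 86.9 and 99.2 CPM in MS-5 only and at 185, 163 and 151 CPM in co-culture (log2 fold change 0.81, SE 0.14, adjusted p = 0.0734, edgeR). Ccn5, a matricellular protein of the CCN family, was measured at 73.3, 86.3 and 113 CPM and at 199, 201 and 164 CPM (1.05, SE 0.20, adjusted p = 0.0742). For Sdc4 and Ccn5 the 3 co-culture libraries lie near each other.

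Itgb2l, a relative of the leukocyte chain Itgb2, had counts of 1, 5 and 6 in MS-5 only against 172, 860 and 272 in co-culture (log2 fold change 6.68, SE 1.06, adjusted p = 0.0734, edgeR). Fbn2, a fibrillin of elastic microfibrils, had counts of 1, 6 and 0 in MS-5 only against 84, 344 and 106 in co-culture (6.21, SE 1.16, adjusted p = 0.0734). For both, MC2 is the highest library, as it is for the summed leukocyte markers. Whether reads of SKM-1 cells left among the MS-5 cells were counted for Itgb2l and Fbn2 was not tested. Kallisto can divide reads between Itgb2l and Itgb2 where they are alike. Without MO1, without MO2 or without MO3 0 of the listed genes passed, and 0 of all genes tested did. Without MC1 2 listed genes passed where 283 of all genes did, and without MC2 2 where 281 did. With protein-coding transcripts only 0 passed, where 3 of all genes did.

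Of the 78 listed genes tested, 12 were higher and 5 lower without overlap between groups, where 11.6% and 9.6% of all genes tested were. Beyond the called genes, those without overlap were led by Fermt3, the kindlin of blood cells. It had counts of 69, 204 and 65 in MS-5 only against 247, 649 and 379 in co-culture (log2 fold change 1.89, adjusted p = 0.183, edgeR). Parvg, the parvin of blood cells, had a log2 fold change of 1.83 (adjusted p = 0.224) and Lims2, an adaptor beside integrin-linked kinase, of 0.82 (adjusted p = 0.120). Both Fermt3 and Parvg are highest in MC2, unlike Lims2, which is highest in MC1 with 21.9 CPM. Itgal, an alpha chain of leukocytes, lay lower in each co-culture library, at 13.6, 8.66 and 9.38 CPM in MS-5 only and 6.74, 6.69 and 5.65 CPM in co-culture (log2 fold change -0.73, adjusted p = 0.196, edgeR). Itgam, another alpha chain of leukocytes, named after its values were seen and too low to be tested, had counts of 0, 5 and 1 in MS-5 only against 12, 49 and 29 in co-culture, with MC2 the highest. The part of reads of SKM-1 cells in the values of Fermt3, Parvg and Itgam was not tested. Col15a1 (1.59, adjusted p = 0.222), Fbln2 (0.35, adjusted p = 0.516), Smoc1 (1.01, adjusted p = 0.255), Smoc2 (-0.35, adjusted p = 0.728) and Cdh2 (-0.25, adjusted p = 0.405) did not overlap either. In the adhesion complex, 5 of 32 tested genes were higher and 2 lower without overlap, where 11.6% and 9.6% of all genes were, and the 4 not yet given are named after their values were seen. Tns3, a tensin that links integrins to actin, was measured at 211, 254 and 236 CPM in MS-5 only and at 332, 351 and 367 CPM in co-culture (log2 fold change 0.58, SE 0.15, adjusted p = 0.118, edgeR), and Vasp, which promotes actin filament growth, had 0.37 (adjusted p = 0.354). Lims1, the relative of Lims2 that binds integrin-linked kinase, and Parvb, a parvin, lay lower in co-culture, with log2 fold changes of -0.37 (adjusted p = 0.346) and -0.40 (adjusted p = 0.378). Of these 13 tested genes beyond the called ones, Itgal also had groups without overlap in TPM, and the others did not. Vcam1, the stromal ligand of receptors with Itga4 and named after its values were seen, was at 15.9, 17.5 and 17.6 CPM in MS-5 only and 16.2, 16.0 and 15.3 CPM in co-culture (-0.10, SE 0.13, adjusted p = 0.845, edgeR). With the covariate for MO2 and MC3, 25 of the listed genes passed, among them 11 higher and 3 lower in the adhesion complex, where 13.9% of all genes tested were called higher and 16.4% lower.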

How the data were processed

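RNA-seq libraries of MS-5 cells grown by themselves (n = 3) or with SKM-1 cells (n = 3) were grouped by the sample labels. The authors quantified reads with Kallisto (0.43.0) against a mouse cDNA index (GRCm38) after FastQC (0.11.7), and deposited an estimated count for each transcript, not normalized between libraries, with its length and effective length in bases, which were used to match transcripts and for a length offset. The TPM values deposited by the authors are estimated counts per effective length, scaled to 1 total per library. Human reads could be counted only where they resembled mouse transcripts. Sleuth, the tool of the methods, was not used here.

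Of 118489 transcripts, 116728 matched GENCODE M21 by identifier, version and length, and the other 1761 were left out. Estimated counts were summed per gene, rounded, filtered with filterByExpr, normalized by TMM and compared by the quasi-likelihood test of edgeR 4.0.16 in R 4.3.3 over 13221 genes, with p-values adjusted by Benjamini-Hochberg and 0.1 as the threshold. The standard error (SE) was taken as log2 fold change over the root of F. Transcript shares were compared by exact two-sided permutation tests. The fits were tested on simulated data. Alternatives were DESeq2 (1.42.0) size factors, library size, DESeq2's Wald test, limma (3.58.1) on log2(TPM + 0.5) and with pseudocounts of 0.1 and 1, an effective length offset, 2 other filters, a replicate block, MO2 and MC3 as a covariate (taken from their place in the paper's PCA), leaving out libraries, and a threshold of 0.05. The floor of 3 counts given for a count of 0 covers counting error only, and the number of libraries limits the precision of the abundant genes.

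The members and gene lists were chosen with earlier results of these data known. Genes named are members past the threshold or without overlap between groups in CPM, the 3 highest by mean TPM among alpha chains, beta chains, laminins and glycoproteins, and listed genes that passed or, per list, up to 3 without overlap. Thbs1, Lama5, Itga4, Itgb2, Nid1, Itgav, Itgam, Vcam1, Tns3, Vasp, Lims1 and Parvb, and the members given by range, were named after their values were seen. The values of 1 member, which the counts include, are not reported here.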

Additional observations from a re-analysis of the deposited data

How the results depend on the processing

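The count of adhesion genes called higher in co-culture was 0 in edgeR's test, 1 in DESeq2's Wald test (Thbs2), 9 with MO2 and MC3 as a covariate and 4 with MO2 and MC3 left out together, and it was 0 under each of the other alternatives run. None was called lower under any of them. Over all genes tested the count was 579 in edgeR's test, 1268 in DESeq2's, 356 in limma on log2(TPM + 0.5), 224 with a pseudocount of 1, 3999 with the covariate, 1702 with MO2 and MC3 left out, 3 with protein-coding transcripts only (an alternative chosen after seeing the data), 2 at a threshold of 0.05 and 0 to 549 when each library was left out in turn, with 0 for any MS-5 only library. The 4 calls in the pathway lists became 9, 1, 1, 25, 14, 0 and 0 in the same order of settings, and 0 to 4 when each library was left out.

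The sign changed in 9 of the 25 adhesion genes tested, none of which was called in any fit. Itga6 had a log2 fold change of -0.09, and 0.008 with a replicate block, 0.21 with MO2 and MC3 left out and -0.41 to 0.20 when each library was left out. Itga3 had -0.02, and 0.006 with library size, 0.176 with a replicate block, 0.04 with the covariate and -0.674 to 1.106 when each library was left out. Itgb2 had 0.60, but -0.04 in limma at each pseudocount (-0.038, -0.041 and -0.035 at 0.5, 0.1 and 1) and -0.01 with a length offset. When each library was left out, Itgb8 ranged from -0.684 to 0.282, Lamb3 from -0.76 to 0.201, Nid1 from -0.287 to 0.046, Sparc from -0.23 to 0.086, Lamb2 from -0.21 to 0.60 and Lamc1 from -0.045 to 0.115. The cause of these changes was not tested.

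The labels do not say whether the replicate numbers pair the libraries. The correlation across genes of deviations from the group means was 0.53 between replicates 1, -0.29 between replicates 2 and -0.52 between replicates 3. Between MO2 and MC3 it was 0.73. With 3 libraries in a group the deviations of a gene sum to 0, so these correlations depend on each other. They cannot decide whether the numbers pair the libraries. A replicate block gave 444 calls over all genes, 3 in the pathway lists and 0 among the adhesion genes. On 2 scales chosen after seeing the data, the 4 adhesion genes higher in co-culture without overlap became 0 in CPM of the library total and 0 in TPM, and the 17 listed genes without overlap became 15 and 9. Genes with few counts, such as Itga4 and Itga6, carry a large counting error.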
